A study of Mus musculus with 8 samples.

Results

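The interferon-stimulated effector genes are the genes that cells switch on after an interferon binds its receptor, here as a list of 48 named mouse genes that holds antiviral effectors, STAT and IRF transcription factors and guanylate-binding proteins. Members were found in the table by gene symbol. Of the 48, 45 had a row in the table of 20976 genes, and Oas1a, Iigp1 and Sp100 were not analysed here. The list was measured in muscle stem cells (satellite cells, the Pax7-expressing cells that rebuild muscle fibres) sorted from mice with loxP-flanked Chd4, a chromatin remodelling ATPase. The cells were expanded briefly in medium with serum and bFGF and then received adenovirus. In the Cre group (4 libraries) the virus carried Cre recombinase, which deletes Chd4 exons 12 to 21. In the GFP group (4 libraries), which carries the same loxP-flanked alleles and also received adenovirus, it carried GFP. Each group came from 4 mice per the series' design text, and the labels give neither age, sex nor strain. In these libraries Cre was never given to cells whose Chd4 lacks loxP sites. Loss of Chd4, presence of Cre and any difference between the Cre and GFP viruses therefore cannot be told apart here. The labels name the sort without its gate, and the cells were a bulk culture, so fewer cells of a type and less RNA per cell cannot be told apart.

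Type I interferons bind the receptor pair Ifnar1 and Ifnar2, and the kinases Jak1 and Tyk2 then phosphorylate STAT proteins such as Stat2, which works with Irf9 in a complex that binds interferon-stimulated response elements (ISRE) in target promoters, while interferon gamma acts at GAS elements. Some of these targets can also be switched on by IRF factors downstream of nucleic acid sensors, without interferon. The products block viral entry, translation, RNA stability and nucleotide supply, or feed back on the signal.

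Values are read counts per gene that the authors had scaled between libraries and rounded, called normalised reads below. The normalised totals lay between 27897860 and 28876348, and gaps between low values put the depth before scaling at 23.3 to 38.0 M reads.

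A pair of models was fitted, both limma on log2(value + 1) with Benjamini-Hochberg adjustment over all 12910 genes that reached 1 CPM (normalised reads scaled to a library total of 1 M) in at least 4 libraries. The first treats the 8 libraries as independent. The second adds the replicate number as a block, because libraries with the same number moved together around their group means. Of the 45 members, 32 passed the filter and were tested. Ifit1 and Cmpk2 passed only through the Cre libraries, so their presence among the tested genes already required a higher Cre level.

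Chd4 itself fell to 4828 ± 787 normalised reads with Cre, against 17636 ± 1848 with GFP (SD, n = 4), without overlap (log2 change -1.88, adjusted p = 0.00328). All 7 myogenic markers had values, and their sum, carried mainly by Myod1, Des and Itga7, ranged from 93813 to 112051 in Cre and from 92447 to 100684 in GFP. Within that list, with the block, Myf5 (log2 change -0.57, adjusted p = 0.000124), Vcam1 (-0.30, adjusted p = 0.0019) and Pax7 (-0.14, adjusted p = 0.0354) were lower, and Myod1 (0.20, adjusted p = 0.0425) and Des (0.17, adjusted p = 0.0447) higher, none of them a call without the block (adjusted p from 0.574 to 0.696). Of 12 leukocyte and macrophage markers 4 had a row, with sums of 178 to 485 in Cre and 94 to 338 in GFP. Of 6 endothelial markers 5 had a row, with sums of 370 to 763 in Cre and 251 to 381 in GFP, and of 6 fibro-adipogenic markers 5 had a row, with sums of 754 to 1085 in Cre and 664 to 1541 in GFP. The macrophage marker Cd68 stood at 396, 82, 114 and 220 with Cre, against 243, 28, 57 and 125 with GFP, higher with Cre in 4 of 4 pairs and highest in Cre library 1 (log2 change 1.00, adjusted p = 0.535, with the block 0.000369). Of the other 3, Csf1r stood at 59, 33, 21 and 16 with Cre, against 35, 23, 10 and 7 with GFP, Cd14 at 30, 56, 55 and 22 with Cre, against 60, 43, 56 and 25 with GFP, lower with Cre in 3 of 4 pairs, and Itgam at 0, 7, 1 and 6 with Cre, against 0, 0, 4 and 0 with GFP. Ptprc, Adgre1, Lyz2 and 5 further leukocyte markers had no row and were not analysed here. Ly6a, listed with the fibro-adipogenic markers, was higher with Cre by 2.35 on the log2 scale (adjusted p = 0.0164, with the block 1.83e-06). Cd34 of the same list was lower without overlap (log2 change -1.23, adjusted p = 0.123, with the block 2.45e-05). The other 2 of the 4 tested were not called with the block. Of these, Pdgfra came to 0.426 normalised reads per kilobase of exon and per 1 M of the total with Cre, against 0.420 with GFP. The endothelial marker Tek was higher with Cre in 4 of 4 pairs (log2 change 1.46, adjusted p = 0.175, with the block 3.28e-05). The other 2 of the 3 endothelial markers tested were not called in either model. The part of such cells in the results was not tested.

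Too low to test were 13 of the 45 members. Under 1 CPM in every library were 12 members: Ifit3, Zbp1, Usp18, Mx1, Mx2, Gbp2, Gbp3, Gbp7, Parp14, Dtx3l, Ifi44 and Nmi. Parp9 averaged 0.945 CPM and was not tested, and Cmpk2 averaged 0.995 CPM and was tested. Mx1, a dynamin-like GTPase that traps viral nucleocapsids, stood at 19, 3, 7 and 5 normalised reads with Cre, against 8, 2, 0 and 3 with GFP (libraries 1 to 4 in order). Usp18, the protease that removes ISG15 and damps receptor signalling, stood at 9, 2, 3 and 2 with Cre, against 6, 2, 1 and 1 with GFP. Both ran near the level of single reads, and their groups overlapped. Ifit3, a partner of Ifit1, stood at 11, 7, 1 and 14 with Cre, against 10, 2, 7 and 1 with GFP, and Ifi44 at 21, 8, 3 and 2 with Cre, against 7, 10, 1 and 1 with GFP, again with overlap. Zbp1, a sensor of nucleic acids in the Z form that can start necroptosis, stood at 14, 10, 9 and 6 with Cre, against 2, 6, 6 and 2 with GFP, higher in 4 of 4 pairs with the groups touching at 6. No test was made at these levels.

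Without the block, 4 of the 32 tested members were higher in Cre (12.5%) and 0 were lower, against 0.837% of all tested genes higher and 0.248% lower (1.08% in either direction). They were Ifit1, Isg15, Rsad2 and Gbp9. Before adjustment 11 members were higher at p under 0.05 and 1 was lower, against 7.41% and 9.30% of all tested genes, and voom called 4 higher and 0 lower. With the block, 16 of 32 were higher and 4 lower, against 22.2% of all tested genes higher and 21.7% lower (43.9% in either direction). With Ifit1 and Cmpk2 set aside, 14 of 30 were higher with the block and 3 of 30 without it. In 10 members, all higher, the groups did not overlap, against 4.41% of all tested genes without overlap on the higher side and 6.17% on the lower side; without Ifit1 and Cmpk2 it was 8 of 30. All 4 pairs were higher in 15 of the 32 members and lower in 6. Among all 12910 tested genes, all 4 pairs were higher in 3605 and lower in 3561. For a single gene, 4 of 4 pairs in the same direction was therefore common. The median log2 change of the 32 was 0.26, beside -0.00081 over all tested genes, and the single changes ran from -0.69 to 3.36. By pair the median was 0.20, 0.14, 0.40 and 0.28 in pairs 1 to 4. The members therefore spread widely around a small median. The list was chosen with earlier results of these data known, so its shares beside those of all tested genes are a description and no test.

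**Figure D1:**
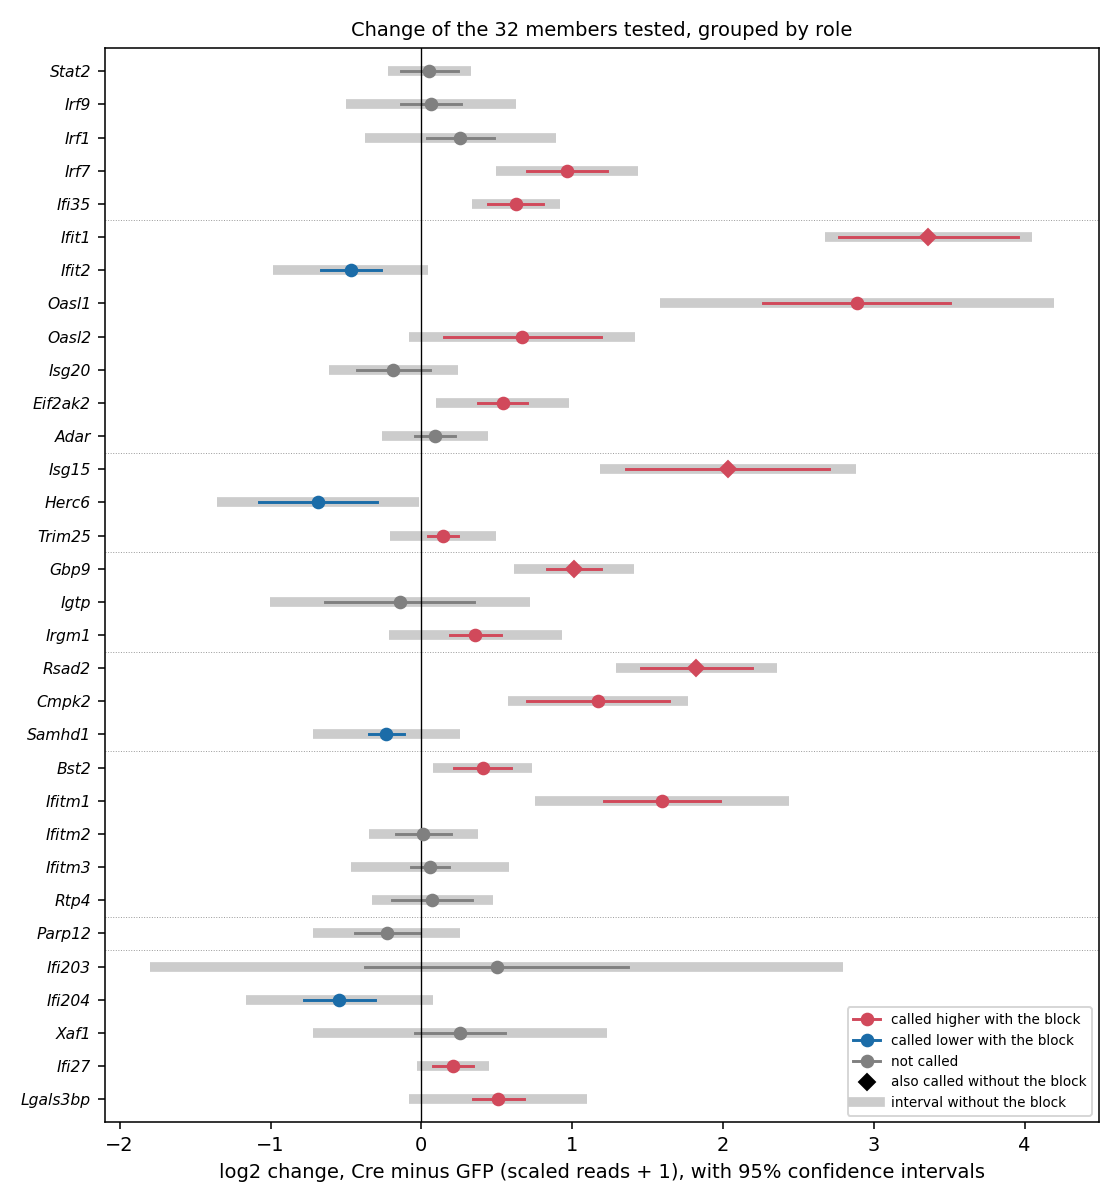
Log2 change (Cre minus GFP, normalised reads + 1) of the 32 members tested, grouped by role, with 95% confidence intervals with the block (thin lines) and without it (grey bars). Diamonds mark the 4 members also called without the block; 16 members lie to the right and 4 to the left as calls with the block, and Ifit1 and Oasl1 lie farthest to the right.

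Of the 5 tested factors that carry or modulate the interferon signal, 2 rose with the block (Irf7 and Ifi35), where 22.2% of all tested genes did, and 3 did not pass. Stat2, which brings the activation domain to the ISRE-binding complex, stood at 456, 451, 522 and 547 normalised reads with Cre, against 462, 492, 408 and 546 with GFP (libraries 1 to 4 in order). The groups overlapped, with a log2 change of 0.05 ± 0.12 (SE, adjusted p = 0.878, with the block 0.644). Irf9, its DNA-binding partner, stood at 220, 170, 176 and 287 with Cre, against 224, 162, 155 and 280 with GFP and overlapped as well; it shares part of its locus with Rnf31 on the same strand (log2 change 0.07, adjusted p = 0.932, with the block 0.595). Irf1, which is itself induced by interferon gamma, stood at 196, 257, 317 and 352 with Cre, against 163, 200, 230 and 364 with GFP. Irf1 was higher in 3 of 4 pairs, with a log2 change of 0.26 that passed in neither model (adjusted p = 0.703, with the block 0.0579).

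Irf7, the amplifier of type I interferon transcription, rose with the block. On GRCm38, the build of all positions here, it lies on chromosome 7 from 141262706 to 141266481 (minus strand) and stood at 131, 125, 117 and 185 normalised reads with Cre, against 70, 60, 64 and 88 with GFP (libraries 1 to 4 in order). Every Cre library lay above every GFP library, and the 4 pairs changed by 0.89, 1.05, 0.86 and 1.06 on the log2 scale. The mean change of 0.97 ± 0.20 missed the threshold without the block (adjusted p = 0.0804) and passed with it (SE 0.12, adjusted p = 0.000152). Irf7 overlaps Phrf1, a more abundant gene on the other strand, and without stated strand use their reads cannot be assigned with certainty. Ifi35, which binds Nmi in a complex that modulates these signals, averaged 352 ± 24.8 with Cre, against 229 ± 30.8 with GFP (SD, n = 4) and was higher in 4 of 4 pairs (log2 change 0.63, adjusted p = 0.0698, with the block 0.0002). Nmi itself lay between 7 and 10 normalised reads in Cre and between 4 and 9 in GFP.

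Among the RNA-binding effectors, Ifit1 showed the largest change of the 32 tested members. Ifit1 binds RNA whose cap lacks the host methyl mark and keeps it from being translated. It lies on chromosome 19 from 34640871 to 34650009 (plus strand), and stood at 201, 95, 135 and 200 normalised reads with Cre, against 12, 19, 13 and 12 with GFP (libraries 1 to 4 in order). The lowest Cre library held 95 normalised reads and the highest GFP library 19. The level was 10.3 times higher in Cre on this scale (95% confidence interval 6.38 to 16.6), with a log2 change of 3.36 ± 0.30 (SE, adjusted p = 0.00597, with the block 1.21e-05).

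Oasl1, an oligoadenylate synthetase-like protein that in mice restrains translation of Irf7, came next. It lies on chromosome 5 from 114923240 to 114937915 (plus strand) and stood at 463, 168, 177 and 192 normalised reads with Cre, against 63, 50, 22 and 11 with GFP (libraries 1 to 4 in order). Cre library 1 held 463 normalised reads and the other 3 between 168 and 192, while the GFP libraries ran from 11 to 63, so the groups did not overlap. The log2 change of 2.89 ± 0.57 missed the threshold without the block (adjusted p = 0.0629) and passed with it (adjusted p = 3.36e-05). Oasl2, an active relative that makes 2-5 oligoadenylates in mice, averaged 51.8 ± 12.6 with Cre, against 33.2 ± 12.6 with GFP (SD, n = 4) and was lower in Cre in pair 2, with a log2 change of 0.67 (adjusted p = 0.353, with the block 0.0403). Its call with the block was lost without pair 1, 3 or 4 and without the filter (adjusted p up to 0.158).

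The kinase gene Eif2ak2, whose product PKR halts translation on double-stranded RNA, rose with the block by 0.54 log2 units (adjusted p = 0.000269, without the block 0.224). It averaged 662 ± 114 with Cre, against 460 ± 118 with GFP (SD, n = 4) and was higher in 4 of 4 pairs. Adar, which edits adenosine to inosine in double-stranded RNA, averaged 915 ± 150 with Cre, against 856 ± 120 with GFP (SD, n = 4) and passed in neither model (log2 change 0.09, with the block adjusted p = 0.241). Isg20, an exonuclease of single-stranded RNA, averaged 146 ± 28.7 with Cre, against 165 ± 25.7 with GFP (SD, n = 4) and also passed in neither (log2 change -0.18, with the block adjusted p = 0.2).

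Ifit2, a relative of Ifit1 in the same cluster, moved the other way with the block. It stood at 167, 231, 325 and 282 normalised reads with Cre, against 268, 325, 393 and 380 with GFP (libraries 1 to 4 in order). It was lower in 4 of 4 pairs, with overlap between the groups, and its log2 change of -0.47 passed with the block (adjusted p = 0.00187) and not without it (adjusted p = 0.344). Per length, in RPKM (normalised reads per kilobase of exon and per 1 M of the total), Ifit1 came to 2.08 ± 0.686 with Cre, against 0.187 ± 0.0467 with GFP, and Ifit2 to 2.23 ± 0.610 with Cre, against 3.08 ± 0.521 with GFP (SD, n = 4 each). The level of Ifit1 was thus close to that of Ifit2 in Cre and far below it in GFP.

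**Figure D2:**
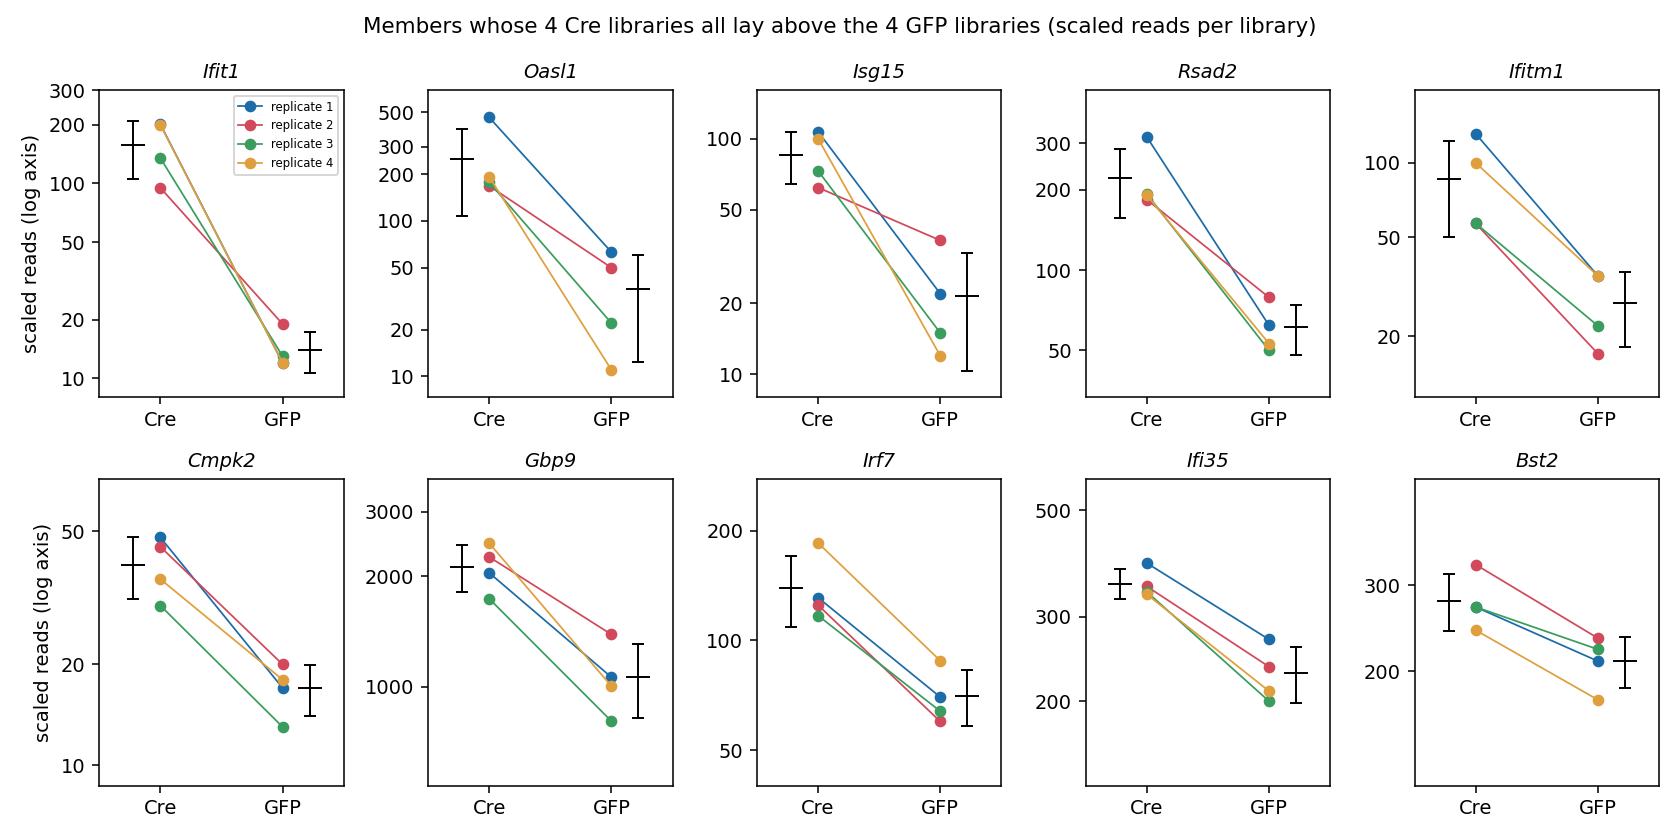
Normalised reads (log axis) of the 10 members without overlap, Cre left and GFP right, with lines joining same-numbered libraries and black bars for the mean ± SD (n = 4 each). Ifit1 ran from 95 to 201 in Cre and from 12 to 19 in GFP, and Oasl1 was highest in Cre library 1, at 463.

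Isg15 encodes a ubiquitin-like protein that is attached to other proteins after interferon. It lies on chromosome 4 from 156199424 to 156200818 (minus strand) and stood at 107, 62, 73 and 100 normalised reads with Cre, against 22, 37, 15 and 12 with GFP (libraries 1 to 4 in order). GFP library 2 held 37 normalised reads, above the 12 to 22 of the other GFP libraries and below the lowest Cre value of 62. The log2 change was 2.03 ± 0.37 (SE, adjusted p = 0.0481, with the block 0.000439). Without the block, omitting any library but GFP 2 ended that call, as did a pseudocount of 0.1 or no filter on low genes (adjusted p up to 0.147).

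Of the other conjugation genes, with the block Herc6 was lower and Trim25 higher, and Usp18 was too low to test. Herc6, the main ligase that attaches ISG15 in mice, stood at 30, 55, 80 and 52 with Cre, against 70, 85, 93 and 86 with GFP. It was lower in 4 of 4 pairs, with a log2 change of -0.69 ± 0.18 (SE with the block, adjusted p = 0.0098, without the block 0.291). Trim25, a ubiquitin ligase that acts on the RNA sensor RIG-I, averaged 2842 ± 486 with Cre, against 2568 ± 408 with GFP (SD, n = 4) and rose with the block by only 0.14 log2 units (adjusted p = 0.024, without the block 0.701). Its call was lost without pair 2 or pair 4 (adjusted p up to 0.113).

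Rsad2 and Cmpk2 lie side by side and act on nucleotides. Rsad2, also called viperin, makes a chain-terminating ribonucleotide, and Cmpk2 supplies the phosphorylated cytidine and uridine nucleotides. Rsad2, on chromosome 12 from 26442746 to 26456452 (minus strand), stood at 316, 184, 193 and 191 normalised reads with Cre, against 62, 79, 50 and 53 with GFP (libraries 1 to 4 in order). Cre library 1 was the highest at 316, the other Cre libraries lay between 184 and 193, and the highest GFP library held 79. Its log2 change was 1.82 ± 0.23 (SE, adjusted p = 0.0175, with the block 2.51e-05), a call lost without the block when Cre 2, Cre 3, Cre 4 or GFP 3 was left out (adjusted p up to 0.0698).

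Cmpk2, on chromosome 12 from 26469204 to 26479837 (plus strand), stood at 48, 45, 30 and 36 normalised reads with Cre, against 17, 20, 13 and 18 with GFP (libraries 1 to 4 in order). All Cre values exceeded all GFP values, and the log2 change of 1.17 passed with the block only (adjusted p = 0.00147, without the block 0.087). Samhd1, which breaks down deoxynucleotides, moved against this pair and stood at 1072, 1618, 1611 and 1785 with Cre, against 1269, 1803, 1796 and 2314 with GFP. It was lower in 4 of 4 pairs by a small amount, with a log2 change of -0.23 ± 0.05 (SE with the block, adjusted p = 0.00476, without the block 0.643).

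The 300-base windows around the starts of 3 of these strongly changed genes, each with an ISRE-type match, are shown first. Then come 3 members that hold the same element but changed less (Irgm1), passed in neither model (Ifitm3) or were too low to test (Ifit3). The windows of Oasl1, Ifitm1, Cmpk2 and Irf7, also higher with the block, held no such match and are not shown. Sequences are from RefSeq (GRCm38.p6), 250 bases before to 50 after the start, 5′ to 3′ on the gene's strand, with ISRE-type matches in capitals.
Ifit1 (chr19:34640639-34640938, plus strand): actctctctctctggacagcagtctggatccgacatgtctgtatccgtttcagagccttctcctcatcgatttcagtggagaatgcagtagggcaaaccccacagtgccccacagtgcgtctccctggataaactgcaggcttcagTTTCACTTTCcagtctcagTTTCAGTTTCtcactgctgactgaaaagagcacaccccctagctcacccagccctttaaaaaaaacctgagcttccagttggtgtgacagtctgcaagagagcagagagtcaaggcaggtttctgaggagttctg
Isg15 (chr4:156200769-156201068, minus strand): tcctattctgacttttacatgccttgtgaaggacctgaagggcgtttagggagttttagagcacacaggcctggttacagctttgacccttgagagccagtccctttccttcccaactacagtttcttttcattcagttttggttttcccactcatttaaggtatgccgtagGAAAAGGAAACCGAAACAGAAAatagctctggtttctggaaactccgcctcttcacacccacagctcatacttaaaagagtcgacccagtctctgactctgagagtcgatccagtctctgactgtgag
Rsad2 (chr12:26456403-26456702, minus strand): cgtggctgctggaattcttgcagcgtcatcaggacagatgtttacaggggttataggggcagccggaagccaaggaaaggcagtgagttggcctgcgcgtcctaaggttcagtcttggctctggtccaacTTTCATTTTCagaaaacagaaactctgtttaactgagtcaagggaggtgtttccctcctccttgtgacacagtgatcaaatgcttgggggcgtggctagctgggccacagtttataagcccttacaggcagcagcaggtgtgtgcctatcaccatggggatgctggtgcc
Irgm1 (chr11:48871371-48871670, minus strand): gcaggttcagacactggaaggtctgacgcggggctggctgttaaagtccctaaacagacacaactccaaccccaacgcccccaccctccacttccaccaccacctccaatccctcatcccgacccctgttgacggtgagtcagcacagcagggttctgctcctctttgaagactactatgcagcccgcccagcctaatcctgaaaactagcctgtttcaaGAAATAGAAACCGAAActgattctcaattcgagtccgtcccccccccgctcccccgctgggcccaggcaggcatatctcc
Ifitm3 (chr7:141010695-141010994, minus strand): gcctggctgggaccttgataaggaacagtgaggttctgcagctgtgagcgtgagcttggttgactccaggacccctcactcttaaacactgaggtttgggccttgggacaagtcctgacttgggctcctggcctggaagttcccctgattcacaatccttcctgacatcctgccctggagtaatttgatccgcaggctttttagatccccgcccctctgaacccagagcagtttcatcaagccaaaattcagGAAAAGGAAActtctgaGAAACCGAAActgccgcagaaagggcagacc
Ifit3 (chr19:34583279-34583578, plus strand): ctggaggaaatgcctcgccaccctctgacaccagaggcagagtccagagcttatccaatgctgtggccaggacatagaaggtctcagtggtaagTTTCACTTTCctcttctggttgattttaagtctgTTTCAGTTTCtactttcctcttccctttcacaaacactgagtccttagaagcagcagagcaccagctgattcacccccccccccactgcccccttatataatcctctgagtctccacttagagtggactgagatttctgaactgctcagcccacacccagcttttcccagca
The pattern searched was GAAA, any 2 bases and GAAA, which reads TTTC, any 2 bases and TTTC on the other strand; both strands were searched, and weaker forms of the element are left out. Overlapping matches were counted, as in Isg15, whose 3 matches run into one another.

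Of the 45 members 35 had a window, and the others, Gbp9, Mx1, Mx2, Zbp1, Ifi204, Parp9, Usp18, Ifi27, Rtp4 and Parp14, had none in the sequence table. An ISRE-type match was present for 15 of the 35 (42.9%), against 3.50% of tested genes and 3.99% of all genes with a window. Among members called higher with the block 6 of 14 held a match (Ifit1, Isg15, Rsad2, Bst2, Irgm1 and Eif2ak2). Among members not called 5 of 11 held one (Stat2, Ifitm2, Ifitm3, Igtp and Ifi203), as did 4 of 7 untested members and 0 of 3 called lower. The GAS-type pattern, TTC, any 3 bases and GAA, which reads the same on both strands, was present for 11 of 35 members (31.4%), against 8.01% of tested genes, and for 3 of 14 called higher. Bst2, Eif2ak2, Gbp7, Ifitm3 and Igtp held both patterns. A match describes letters in a window and not a bound site.

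The dynamin-like GTPases were led by Gbp9, a guanylate-binding protein, a family whose members coat intracellular pathogens and their vacuoles. Gbp9 lies on chromosome 5 from 105077630 to 105139539 (minus strand) and stood at 2045, 2259, 1738 and 2463 normalised reads with Cre, against 1062, 1389, 806 and 1004 with GFP (libraries 1 to 4 in order). The lowest Cre library, at 1738, lay above the highest GFP library, at 1389. Its log2 change was 1.01 ± 0.17 (SE, adjusted p = 0.0403, with the block 1.23e-05), and omitting any library but GFP 2 ended the call without the block (adjusted p up to 0.137). Gbp9 overlaps Gbp8 and Gbp4 on the same strand, and members of this family are similar in sequence, so the split of reads between them is uncertain. Irgm1, which guards membranes against other immunity-related GTPases, averaged 588 ± 149 with Cre, against 464 ± 152 with GFP (SD, n = 4) and rose with the block by 0.36 log2 units (adjusted p = 0.00334, without the block 0.519). Igtp, a further GTPase of that family, averaged 38 ± 13 with Cre, against 42 ± 15.3 with GFP (SD, n = 4) and passed in neither model. Igtp overlaps the more abundant Irgm2 on the same strand, so the split of reads between them is uncertain. Mx1, Mx2, Gbp2, Gbp3 and Gbp7 lay between 0 and 19 normalised reads in all libraries.

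Of the membrane restriction factors, Ifitm1 changed and its neighbours Ifitm2 and Ifitm3 did not pass the test. These small proteins block fusion of viral and cell membranes. Ifitm1, on chromosome 7 from 140967221 to 140969825 (plus strand), stood at 131, 57, 57 and 100 normalised reads with Cre, against 35, 17, 22 and 35 with GFP (libraries 1 to 4 in order). The groups did not overlap and the pairs changed by 1.33 to 1.87, with a mean log2 change of 1.60 that passed with the block (adjusted p = 6.60e-05) and not without it (adjusted p = 0.092). Ifitm3 averaged 2387 ± 668 with Cre, against 2272 ± 511 with GFP (SD, n = 4), with a log2 change of 0.06 and a 95% confidence interval with the block of -0.07 to 0.18. Ifitm2 averaged 1214 ± 256 with Cre, against 1189 ± 129 with GFP (SD, n = 4), with a log2 change of 0.01 and an interval of -0.17 to 0.20. In RPKM Ifitm3 came to 123 ± 34.4 with Cre, against 119 ± 26 with GFP (SD, n = 4 each), and Ifitm1 came to 2.75 ± 1.16 with Cre, against 0.882 ± 0.293 with GFP. Bst2, or tetherin, which holds budding virions at the cell surface, averaged 279 ± 37.1 with Cre, against 210 ± 25.5 with GFP (SD, n = 4) and rose with the block by 0.41 log2 units (adjusted p = 0.00353, without the block 0.222). Rtp4, a chaperone of membrane receptors that overlaps the more abundant Masp1 on the other strand, averaged 110 ± 11.6 with Cre, against 106 ± 17.1 with GFP (SD, n = 4) and passed in neither model.

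Of the ADP-ribosylation genes 1 of 4 was tested. Parp12 averaged 168 ± 36.5 with Cre, against 195 ± 32.4 with GFP (SD, n = 4) and was lower in 4 of 4 pairs without passing (log2 change -0.23, adjusted p = 0.649, with the block 0.0757). Parp9 and Dtx3l, whose products form a complex and whose genes overlap on opposite strands, lay between 9 and 44 normalised reads in all libraries, with overlap between the groups. Parp9 also overlaps Gm15564 on the other strand, which is far more abundant. Parp14, a further ADP-ribosyltransferase, ran from 6 to 14 in Cre and from 5 to 10 in GFP.

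Among the remaining members Ifi204, a sensor of cytosolic DNA of the p200 family, fell with the block. It stood at 138, 144, 269 and 248 with Cre, against 211, 260, 326 and 337 with GFP. It was lower in 4 of 4 pairs, with overlapping groups and a log2 change of -0.54 (adjusted p = 0.00218, without the block 0.359). Ifi203, a near relative, stood at 78, 43, 14 and 23 with Cre, against 80, 37, 2 and 33 with GFP, and both libraries of replicate 3 were low. Reads of this multigene family may be split between near-identical copies. Xaf1, which antagonises the apoptosis inhibitor XIAP, stood at 131, 285, 151 and 117 with Cre, against 134, 287, 96 and 87 with GFP, so both libraries of replicate 2 were high. In neither of these 2 genes did the groups separate.

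Lgals3bp, a secreted glycoprotein, averaged 455 ± 140 with Cre, against 318 ± 92.4 with GFP (SD, n = 4) and rose with the block by 0.51 log2 units (adjusted p = 0.000468, without the block 0.367). Ifi27 averaged 720 ± 46.1 with Cre, against 625 ± 74 with GFP (SD, n = 4) and rose with the block by 0.21 log2 units (adjusted p = 0.0177, without the block 0.36), a call lost without pair 1, 3 or 4 (adjusted p up to 0.0601).

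**Figure D3:**
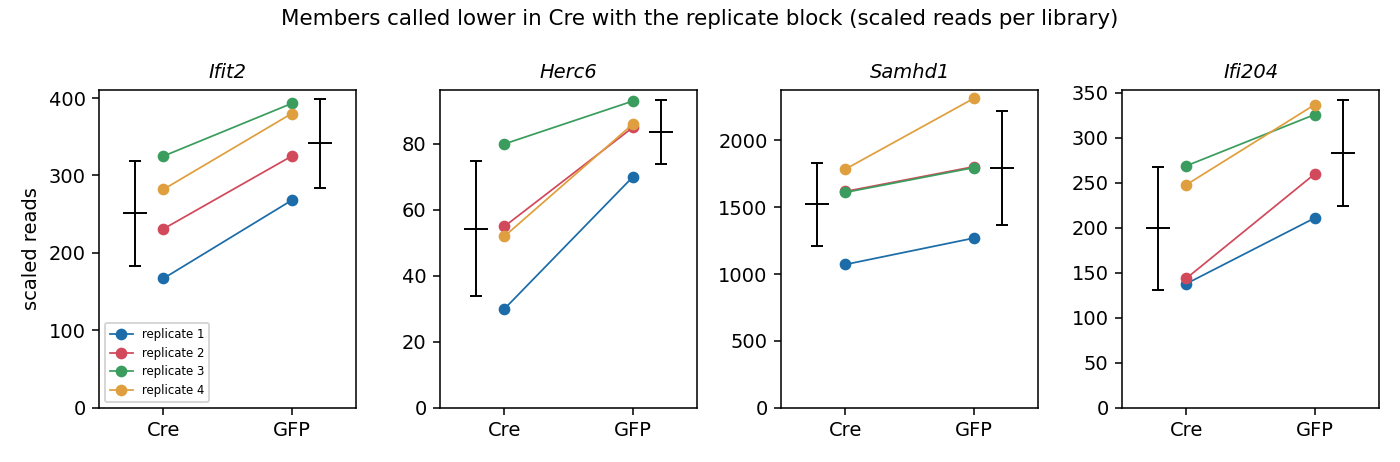
Normalised reads (linear axis from 0) of the 4 members called lower with the block, Cre left and GFP right, with lines joining same-numbered libraries and black bars for the mean ± SD (n = 4 each). Each line is lower at Cre, while the groups overlap, as in Ifit2 with 167 to 325 in Cre and 268 to 393 in GFP.

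Of the members called higher with the block, 7 had a log2 change of at least 1 (Ifit1, Oasl1, Isg15, Rsad2, Ifitm1, Cmpk2 and Gbp9), where 2.58% of all tested genes were called higher and reached that size. Ifit1 and Cmpk2 among the 7 were tested only through their Cre level, which leaves 5 of 30. All of the 4 called lower changed by less. For Ifit1, Oasl1, Isg15, Rsad2 and Gbp9 pair 2 gave the smallest, with GFP library 2 the highest GFP library for Ifit1, Isg15, Rsad2 and Gbp9.

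Neighbouring genes gave a comparison within the same stretch of chromosome. Of 13 pairs of tested genes within 100 kb of each other with at least 1 member, the log2 ratio between the genes separated Cre from GFP in 5, each at p = 0.0286, the smallest p that an exact two-sided permutation test of 4 against 4 libraries can give. Adjusted over the 13 pairs this is 0.0743, and with sign flips within pairs the smallest possible p is 0.125, so none passed. The 5 include pairs with Ifit1 and Cmpk2, tested only through their Cre level, and Ifitm1 enters against both Ifitm2 and Ifitm3. No share over other neighbouring genes was taken for comparison. Ifit1 lies 64.5 kb from Ifit2, and the change of Ifit2 was below that of Ifit1 in all 4 pairs (Ifit2 minus Ifit1, -4.64 to -2.75 log2 units). Ifitm1 lies 11.2 kb from Ifitm2 and 39.8 kb from Ifitm3, and its change exceeded that of Ifitm3 by 1.24 to 1.86 in the 4 pairs. Oasl2 lies 11 kb from Oasl1 and lay below it in all pairs (Oasl2 minus Oasl1, -3.17 to -1.83). Rsad2 and Cmpk2 are 12.8 kb apart and moved the same way, Rsad2 more by 0.08 to 0.89.

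**Figure D4:**
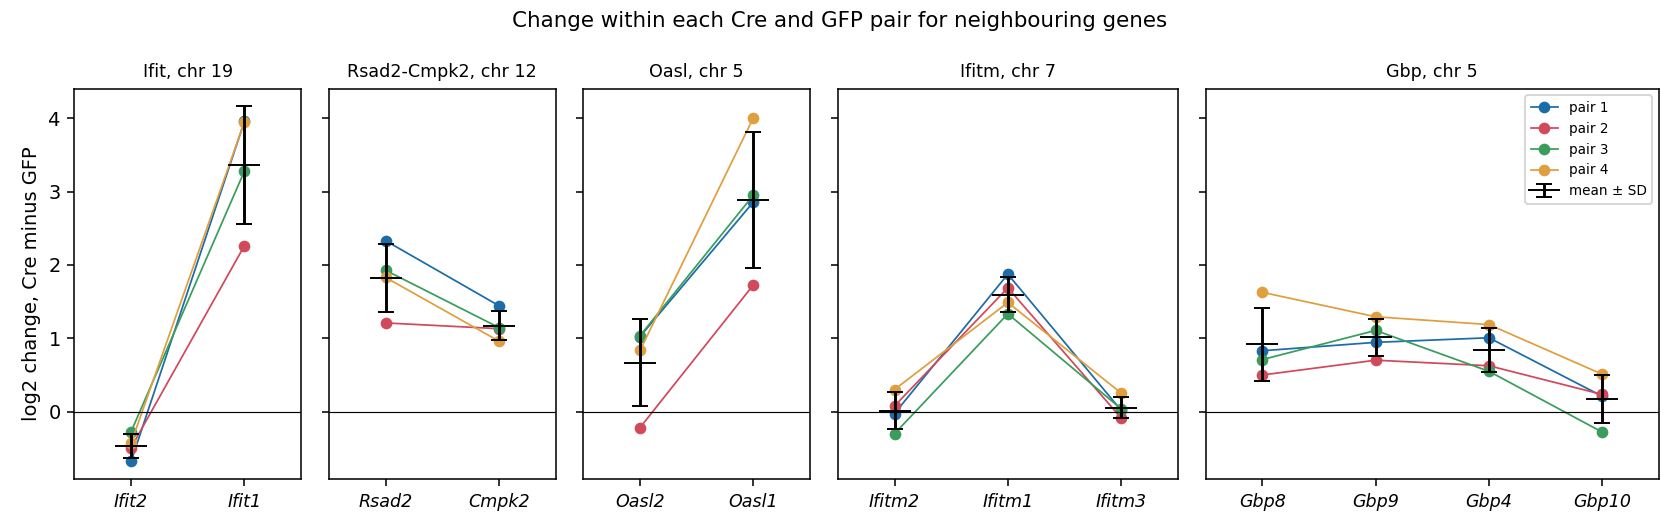
Log2 change (Cre minus GFP) within each of the 4 same-numbered pairs for neighbouring genes in 5 clusters, with black bars for the mean ± SD over pairs. In every pair Ifit1 lies above Ifit2, Ifitm1 above Ifitm2 and Ifitm3, and Oasl1 above Oasl2.

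Relatives of the members outside the list are further genes of the same families. Of 50 relatives listed, 39 had a row and 24 were tested, of which 5 were higher and 4 lower with the block. These shares, 5 and 4 of 24, lie near the 22.2% and 21.7% of all tested genes. With the block Gbp4 and Gbp8, which overlap Gbp9, were higher by 0.84 and 0.92 log2 units (adjusted p = 9.56e-05 and 0.00165), with overlapping groups and no call without it (adjusted p = 0.268 and 0.41). Parp10, an ADP-ribosyltransferase, was higher by 0.73 log2 units with the block (adjusted p = 0.00147, without the block 0.115), and Herc3 and Ifitm10 were the other 2. The 4 called lower with the block were Ifi202b, Stat6, Isg20l2 and Eif2ak4, with log2 changes of -0.47, -0.28, -0.20 and -0.19, and without the block their adjusted p lay between 0.33 and 0.956. Ifi27l2a, a relative of Ifi27 too low to test, stood at 6, 5, 3 and 6 with Cre, against 0, 0, 0 and 0 with GFP. Ifi202b, a p200 family gene beside Ifi203, was at 0 in both libraries of replicate 3 and between 233 and 666 in the other 6.

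Upstream of the members stand the ligands, receptors, kinases and STATs. Ifnb1 and the other 8 ligand genes listed had no row and were not analysed here. Ifnar1 stood at 2843, 2353, 2533 and 2423 normalised reads with Cre, against 3106, 2333, 2484 and 2556 with GFP (libraries 1 to 4 in order), with overlap and a log2 change of -0.04 (adjusted p = 0.894, with the block 0.498). Ifnar2 stood at 463, 400, 394 and 369 with Cre, against 507, 431, 470 and 448 with GFP and was lower with the block (log2 change -0.19, adjusted p = 0.0454, without the block 0.409), a call lost without any single pair (adjusted p up to 0.166). Among the kinases and STATs, with the block Stat3 and Tyk2 were higher and Jak1 and Jak2 lower, by at most 0.33 log2 units in size, and none of these 4 was called without it (adjusted p from 0.197 to 0.473).

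Among the 52 tested genes of the pathway lists, relatives included, 4 were called higher without the block, where 0.837% of all tested genes were, and none lower (1 lower and 10 higher at an unadjusted p under 0.05 in limma). With the block 15 were higher and 9 lower, beside 22.2% and 21.7% of all tested genes. Both counts of higher genes include Ifih1, which was tested only through its Cre level. Like the members, these lists were chosen with earlier results of these data known. Irf5, an IRF factor that drives inflammatory cytokine genes in macrophages, stood at 146, 106, 134 and 121 normalised reads with Cre, against 38, 24, 43 and 29 with GFP (libraries 1 to 4 in order). Its groups lay far apart, with a log2 change of 1.91 ± 0.23 (SE, adjusted p = 0.0147, with the block 1.14e-05), a call that ended without the block on omitting any one Cre library (adjusted p up to 0.0657), and Irf5 overlaps the more abundant Tnpo3 on the other strand. Ptpn6, the phosphatase SHP-1 that damps receptor kinases, stood at 241, 180, 191 and 157 with Cre, against 44, 66, 36 and 47 with GFP and did not overlap (log2 change 1.99, adjusted p = 0.0126, with the block 2.27e-05); without the block the call was lost on omitting Cre 2 or Cre 3 (adjusted p up to 0.0657).

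The RNA sensors Ifih1 and Ddx58, which encode MDA5 and RIG-I, were the other calls without the block. Ifih1 stood at 259, 74, 94 and 159 with Cre, against 23, 18, 24 and 26 with GFP, without overlap (log2 change 2.48, adjusted p = 0.0296, with the block 3.39e-05). Like Ifit1, it reached 1 CPM in the 4 Cre libraries alone, so its being tested already required a higher Cre level. Ddx58 stood at 183, 167, 185 and 159 with Cre, against 109, 94, 95 and 89 with GFP, also without overlap (log2 change 0.84, adjusted p = 0.0325, with the block 0.000177). Without the block, omitting any one library ended either call. Voom also ended that of Ifih1, and a filter of 5 CPM that of Ddx58 (adjusted p up to 0.114 over these settings). With the block both genes kept their call without each pair. With the block 5 of the 8 tested genes of nucleic acid sensing were higher and 1 lower, against 22.2% and 21.7% of all tested genes. Ifih1, tested only through its Cre level, is among those 5. The lower gene, Mb21d1, was down in 4 of 4 pairs (log2 change -0.68, adjusted p = 0.000535, without the block 0.371). Socs1, a feedback inhibitor of the JAK kinases, averaged 69 ± 9.06 with Cre, against 52.5 ± 7.23 with GFP (SD, n = 4) and passed in neither model (log2 change 0.39, with the block adjusted p = 0.0607).

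**Figure D5:**
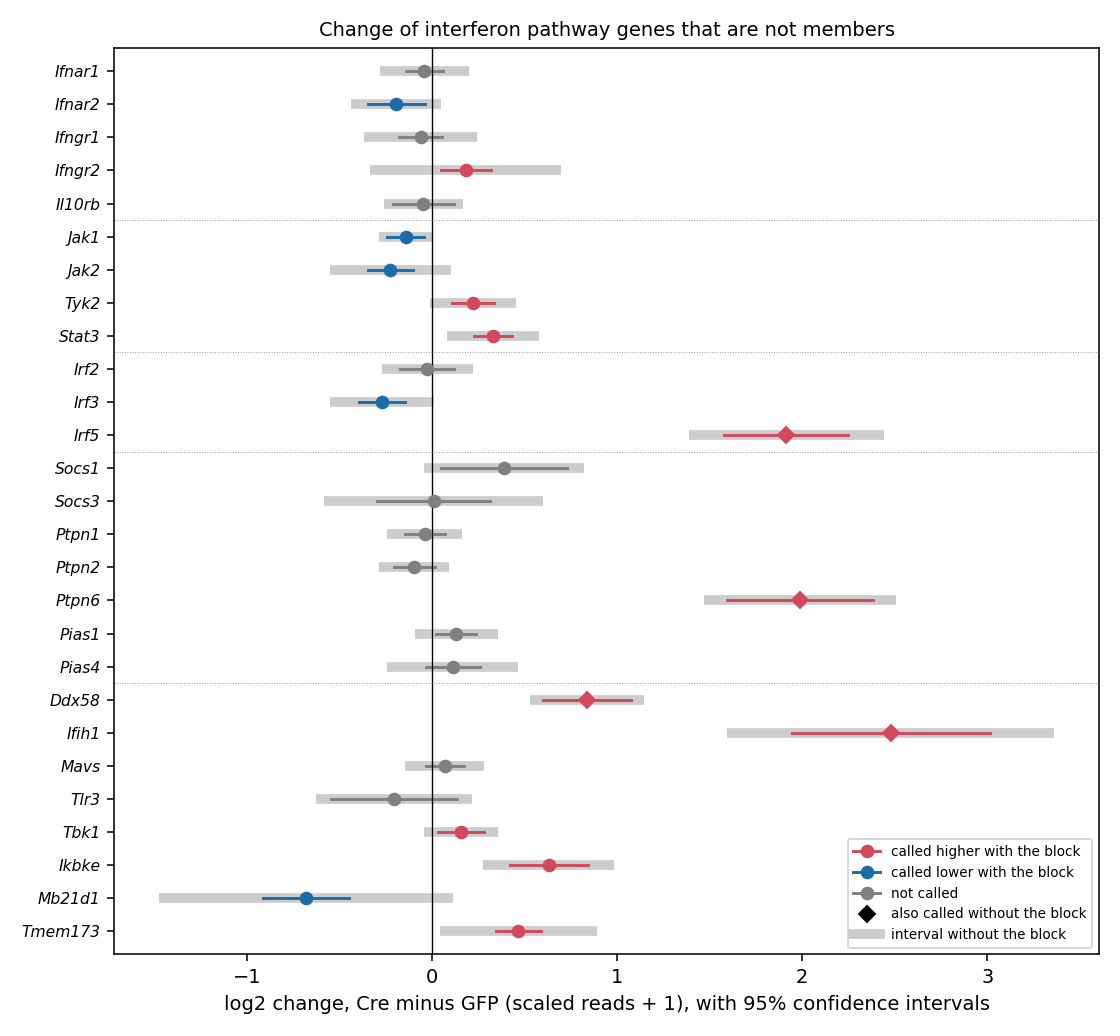
Log2 change (Cre minus GFP, normalised reads + 1) of 27 tested pathway genes that are not members, in the order receptors, kinases and STATs, other IRFs, negative regulators and sensors, with 95% confidence intervals with the block (thin lines) and without it (grey bars). Irf5, Ptpn6, Ifih1 and Ddx58 (diamonds) were called in both models, and Ifnar1 lay at -0.04.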

How the data were processed

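RNA of 8 libraries was analysed from 1 table of 20976 genes. Its values count as a score here: near-equal totals and regularly missing or doubled low values show read counts that the authors had scaled between libraries and rounded before they were deposited. The submitters' processing notes list STAR 2.5.3a, featureCounts 1.5.3, Subread and DESeq beside the builds mm10 and GRCm38, without their roles. Libraries were stranded, per the labels' protocols; settings, annotation and the strand used in counting: not given in the sources used here.

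By those gaps 1 original read is worth 0.741 to 1.20 units. Depth matters most for members below 20 normalised reads, and reads without molecular identifiers are not independent molecules. Replicates within a group differed by a chi-square per degree of freedom of 20.7 to 114, so no library repeated another.

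Genes with at least 1 CPM in at least 4 libraries (12910 kept, 8066 removed) were fitted with limma 3.58.1 (R 4.3.3) on log2(value + 1) with an intensity trend. P-values are two-sided and adjusted by Benjamini-Hochberg at 0.05. The log2(value + 1) scale understates the change of low genes. Cre and GFP libraries of equal number had deviations correlated at 0.820 to 0.908, those of unequal number at -0.597 to 0.477. Pairing rests on these values, since the labels do not say what a number shares; a second model holds the number as a block. P-values without the block measure the spread between these libraries, and those with it the spread of Cre minus GFP differences between same-numbered pairs.

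Exon lengths and overlaps came from GENCODE M21 (45 of 45 members matched by identifier), with 10 members overlapping another gene in the table. Python 3.11.15, numpy 2.4.6, pandas 2.3.3, scipy 1.17.1 and matplotlib 3.10.9 were used. Named genes followed a rule: members called without the block, called with it at 1 log2 unit or more, or called lower with it, and Stat2, Irf1, Irf7 and Irf9 have all values given, and others are summarised. Pathway genes are named where called without the block, with Ifnar1, Ifnar2 and Ifnb1 (a further gene of this rule is not reported here); further relatives, pathway genes and the neighbour comparison were chosen after their values were seen. Members and lists were chosen with earlier results of these data known. The fits were checked on simulated data for recovery of set changes, which does not measure false calls in these data. Alternatives were pseudocounts, filters, scalings, voom, the block and leaving out libraries or pairs.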

Additional observations from a re-analysis of the deposited data

Results flagged for a closer look

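Of 76 groups of 4 libraries examined, 4 held 1 library far from the other 3 relative to the range of the group, where chance flags about 1 in 20 groups. Oasl1 stood at 463 normalised reads in Cre library 1, against 168, 177 and 192 in the other Cre libraries. Rsad2 stood at 316 in the same library, against 184, 191 and 193. Ifit1 stood at 19 in GFP library 2, against 12, 12 and 13 in the other GFP libraries. Ifi27 stood at 735 in GFP library 2, against 575, 593 and 597.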

How the results depend on the processing

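The count of members called higher without the block, 4, was 4 with a pseudocount of 5, with each of 3 rescalings and with voom, fell to 3 with a pseudocount of 0.1 or no filter, and to 2 with a filter of 5 CPM, which tests 21 members. Leaving out single libraries gave 1 to 4. With the replicate block 16 were higher and 4 lower. Alternatives of that model gave 16 and 4 with either pseudocount, TMM, equal totals or voom, 17 and 4 with upper-quartile rescaling, 15 and 4 without a filter, and 10 and 3 with a filter of 5 CPM, and leaving out a pair gave 14 to 15 higher and 4 lower. None of the 8 alternatives without the block that keep all libraries, and no left-out library, called a member lower (0). Ifit1 kept its call in the 15 alternatives without the block that tested it. For single genes, every other setting, fits with the block included, was compared with the first fit without the block. Of these values 829 kept their side of the threshold and no called value reversed. All of the 203 that gained a call came from fits with the block, and all of the 44 that lost one from fits without it. The block model fits only where both libraries of a number are present. After the rescalings the median log2 change of all tested genes lay between -0.02204 and 0.02347, beside -0.00081 without rescaling. Genes under about 20 normalised reads are limited by depth. The cause of lost calls was not tested.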
